A study of Drosophila melanogaster with 2 samples.

Results

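The regions described here lay in 3' untranslated regions (3' UTRs), the stretches of a transcript that follow its stop codon. A gene with several transcripts can have several, and some end well inside the gene. They came from chromatin immunoprecipitation followed by sequencing (ChIP-seq) of the homeodomain protein Lbe in Drosophila melanogaster embryos. A region was a member when its summit fell in an annotated 3' UTR and more than 500 bp from every transcription start site (TSS) of genes for proteins or non-coding RNA. Of 29999 regions called on both replicates pooled, 29968 lay on 2L, 2R, 3L, 3R, 4 and X, and 2095 of these were members. The study had 1 group with 2 biological replicates: whole embryos of 0 to 24 h, both sexes pooled, of a transgenic line stably expressing Lbe with GFP at its C terminus. The tagged protein was precipitated with an antibody against GFP, after sonication to fragments of 200 to 800 bp. There was no second genotype, stage or treatment. The control named for the peak calling was not analysed here, so an untagged background cannot be set beside the values. The deposited lists hold no read counts, so sequencing depth is unknown.

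Lbe (ladybird early) is a homeodomain transcription factor of the embryo. With its neighbour ladybird late it specifies subsets of muscle and heart cells, and it also acts in the epidermis and nervous system. Homeodomains bind short A and T rich DNA words built around TAAT, and ladybird-type factors are known for words such as TAACTA. A 3' UTR is known mainly for what it does in RNA: it carries the polyadenylation signal AATAAA, which directs cleavage and tailing of the transcript, and sites for microRNAs and RNA-binding proteins. In DNA it can also hold enhancers, and in the compact fly genome its end often lies close to the start of another gene. Each cell type of a whole embryo contributes chromatin, so a region cannot be assigned to a tissue from these data.

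Homeodomain words and the polyadenylation signal near the summits of some members are shown. In the lines below, CG7872 and scf appear with both kinds of word. Each line gives 30 bases from genome release 6 (dm6), 5' to 3' on the strand named, with the word in capitals. The word nearest the summit was taken. The first 3 are the strongest members past the reproducibility threshold that held TAATTA within 100 bp of the summit, leaving out 1 chromosome arm.
Cals, chr4:1113364-1113393, minus strand: aacgatgccttgTAATTAgaaattaataga
CG3842, chrX:6343562-6343591, plus strand: cacgttctatatTAATTAactatgtttaaa
CG12025, chr3L:1869071-1869100, plus strand: acatctttttgaTAATTAtaagtgctaacg
The next 3 are the strongest that held TAACTA.
CG7872, chrX:15579799-15579828, plus strand: tcgcgtgtttccTAACTAacttgactaaac
by, chr3R:9528659-9528688, minus strand: cgataagattggTAACTAttggaaacgcca
scf, chr3L:1300302-1300331, plus strand: acattttacatcTAACTAttattaacaaga
The last 3 show AATAAA on the host gene's own strand, in 3 members chosen, after their values were seen, for a summit close to the end of the 3' UTR.
CG7872, chrX:15579827-15579856, plus strand: accgattactgtAATAAActagataaaatt
scf, chr3L:1300349-1300378, plus strand: tgcaacatgttcAATAAAatgcttttattc
Kdsr, chr3R:25260968-25260997, minus strand: cgttttaacaaaAATAAAatgtatttactg
The AATAAA of CG7872 ended 13 bp before the end of the 3' UTR, that of scf 23 bp and that of Kdsr 17 bp. In CG7872 the summit lay 22 bp from the centre of TAACTA and 50 bp from that of AATAAA. In CG3842 the summit lay inside TAATTA, and a TAACTA overlapped it. A match is a run of letters and not evidence of binding.

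Most 3' UTR regions were weak. The irreproducible discovery rate (IDR), a threshold on how well peak ranks repeat between replicates, passed 50 of the 2095 members, or 2.39% (Wilson 95% interval 1.82 to 3.13). Of all 29968 pooled regions 15.9% passed, so the members passed less often than the background. In the deposited lists, passing was the same as a pooled signal of at least 98.7: 0 regions above that value failed. The share passing was 27.6% at promoters (within 500 bp of a TSS), 11.6% in introns, 11.5% between genes and 0.871% in coding exons, where 4 of 459 passed. The 3' UTR share minus that of introns was -9.18 percentage points (Newcombe 95% interval -9.99 to -8.26), and minus that of intergenic regions -9.09 points (-10.2 to -7.93). Minus that of coding exons it was 1.52 points (0.0514 to 2.43). The median pooled signal, a score from the authors' peak caller on a scale not stated, was 32 in members, 41.2 in all regions, 37.2 in introns and 60.2 at promoters. All intervals here cover the counting of regions only, since regions share libraries and are not replicates.

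The lower share was present at each distance from a start. Members 501 to 1000 bp from the nearest TSS passed in 12 of 381 cases (3.15%), and introns at that distance in 15.5%. Beyond 5000 bp the members passed in 4 of 291 cases (1.37%) and intronic regions in 9.7%. Regions in 3' UTRs within 500 bp of a TSS, which the rule left out, passed in 50 of 389 cases (12.9%, 9.89 to 16.5). Their median signal was 42.5. At the limit itself, the members nearest inside lay in SMC5 (502 bp from a start, signal 30.3), CG31495 (502 bp, 28.3) and bif (506 bp, 55.9). The nearest outside lay in SppL (500 bp, 28.9), x16 (500 bp, 22) and an overlap of CG2816 and CG31778 (497 bp, 29.6). None of these 6 passed IDR.

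The number of regions per megabase gave another picture, and in the comparison with introns the replicates parted. The 3' UTR bases eligible under the rule covered 6.85 Mb and held 306 pooled regions per Mb (exact Poisson 95% interval 293 to 319). Introns held 239 per Mb, intergenic sequence 127 and coding exons 26.1. The ratio of 3' UTRs to introns was 1.28 in the pooled list (1.22 to 1.34). In replicate 1 alone it was 1.5 (1.44 to 1.57), with 359 regions per Mb in 3' UTRs. In replicate 2 alone it was 0.923 (0.874 to 0.976), with 208 per Mb. The lists hold equal numbers of regions on the arms, 29967 in each replicate, of which 2458 (8.2%) lay in 3' UTRs in replicate 1 and 1427 (4.76%) in replicate 2. In the pooled regions with a signal at or above the median the ratio was 0.866 (0.796 to 0.94), with 91.9 regions per Mb in 3' UTRs and 106 in introns. An excess over introns was thus present in replicate 1 and in the whole pooled list, and absent from replicate 2 and from the stronger pooled regions. An excess over intergenic sequence was present in each. That ratio was 3.08 in replicate 1 (2.93 to 3.23), 1.52 in replicate 2 (1.43 to 1.61) and 1.75 in the stronger pooled regions (1.59 to 1.91).

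Among regions past IDR the order of 3' UTRs and introns was the reverse of the pooled one and held in each replicate. There were 7.3 such members per Mb (5.42 to 9.63), 27.6 per Mb in introns and 14.6 per Mb between genes. The ratio to introns was 0.264 (0.195 to 0.35). In the 4782 strongest regions of replicate 1, as many as there are IDR peaks, it was 0.275 (0.204 to 0.362), and in those of replicate 2 it was 0.244 (0.178 to 0.326). Coding exons held fewest, 0.227 per Mb.

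**Figure D1:**
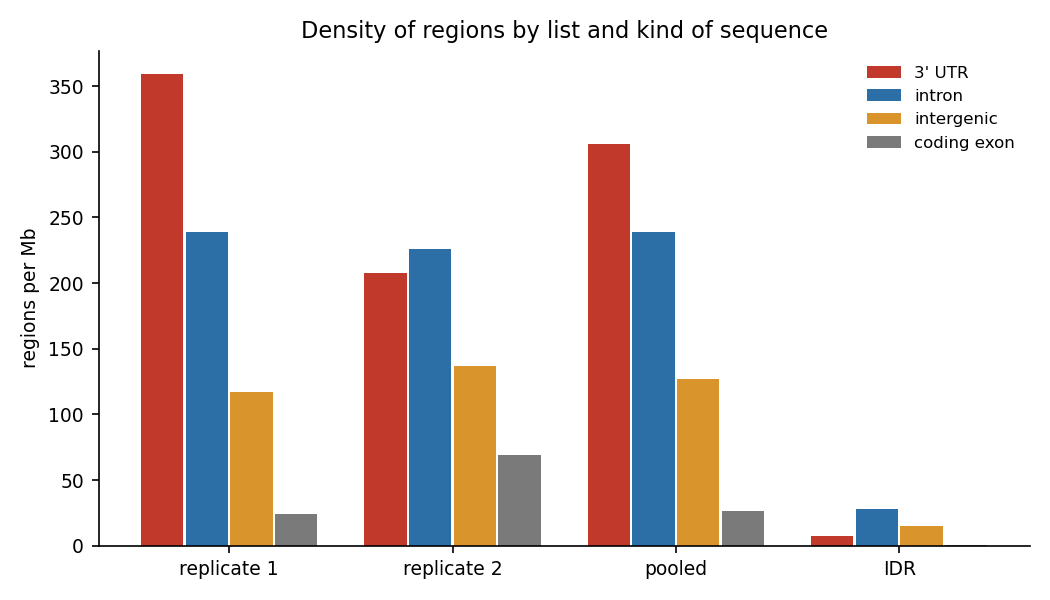
Regions per Mb (vertical axis) in 3' UTRs, introns, intergenic sequence and coding exons away from starts, for the region lists of replicate 1, replicate 2 and both pooled and for the IDR peaks. The 3' UTR bar is the tallest of its group in replicate 1 (359) and the pooled list (306), below the intron bar in replicate 2 (208 against 226), and far below it among IDR peaks (7.3 against 27.6).

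Base composition moved with these counts. The 201 bases around member summits were 66.5% A and T on average (SD 5.76, n = 2095 members), against 58.8% in windows centred 600 bp away and 62.1% over all eligible 3' UTR bases. All pooled regions averaged 62.5%. The members past IDR averaged 64.8% (SD 6.01, n = 50). The density of members climbed from 37.3 per Mb where A and T made up under 50% of the sequence to 508 per Mb at 65 to 70%, and was 420 per Mb above that. Introns climbed from 103 to 398 per Mb over the same range. The ratio of 3' UTRs to introns was therefore 0.364 in the class poorest in A and T (0.245 to 0.522) and 1.27 at 65 to 70% (1.18 to 1.38). In replicate 1 the 3' UTR density ranged from 25.3 to 648 per Mb over these classes, and in replicate 2 from 111 to 277. The part of composition in the difference between the replicates was not tested.

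The share past IDR in 3' UTRs was also the lower one at matched composition, clearly so above 60% A and T. At 60 to 65% A and T, 17 of 434 members passed (3.92%, 2.46 to 6.18), against 11% of intronic and 15.5% of intergenic regions. At 65 to 70%, 11 of 818 members passed (1.34%, 0.753 to 2.39), against 13.8% and 14.7%. Above 70% it was 2.02% (1.16 to 3.5), against 11.6% and 8.67%. Fewer members lay in the classes poorer in A and T, and there the intervals overlapped with those of introns, of intergenic regions or of both. At 55 to 60% the share was 4.49% (2.19 to 8.97), against 10.5% and 8.14%, and at 50 to 55% it was 4.84% (1.66 to 13.3), against 9.02% and 8.74%. In the class under 50% none of 31 members passed, which allows up to 11% by the Wilson interval.

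**Figure D2:**
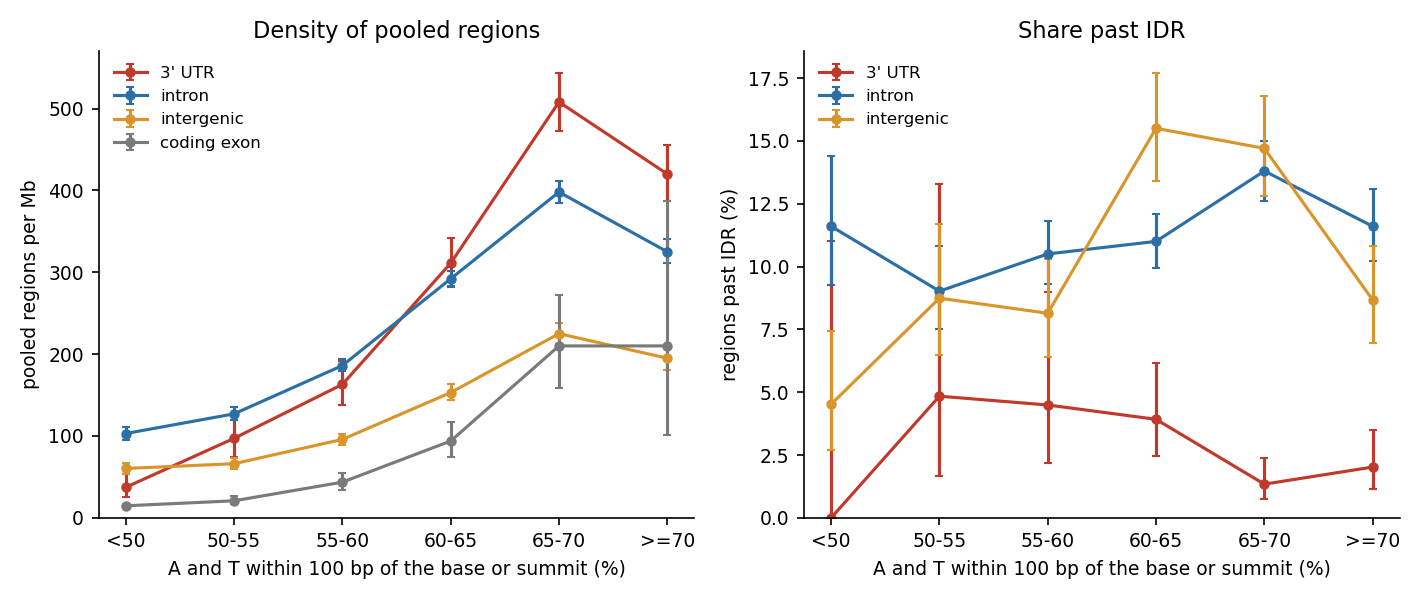
Pooled regions per Mb (left) and the percentage of them past IDR (right), by the percentage of A and T within 100 bp, with exact Poisson and Wilson 95% intervals. The 3' UTR line crosses that of introns on the left, reaching 508 per Mb at 65 to 70% A and T, and lies below the intron and intergenic lines in each class on the right.

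Members gathered towards the end of the annotated 3' UTR interval that held them. Their summits lay a median of 393 bp before it, against 510 bp for the eligible 3' UTR bases, and 34.4% (32.4 to 36.5) were within 200 bp of it, against 26.6% of the bases. Among the 50 members past IDR the median was 205 bp, and 25 of 50 (50%, 36.6 to 63.4) were within 200 bp. This was 16 points more than among the members that failed (2.45 to 29.5). The first 20% of the interval held 11.8% of members and 4% of those past IDR, against 20.9% of the bases.

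Regions did not stop at the last annotated 3' UTR end of a gene, called the outer end here. Over the last 200 bp of 3' UTRs there were 463 pooled regions per Mb (429 to 499), and over the first 200 bp of intergenic sequence beyond the end there were 429 (386 to 476). Further in, from 200 to 1000 bp, 3' UTRs held 306 per Mb, and at the same distance outside there were 223. The regions past IDR differed between the sides: 25 of 686 regions passed in the last 200 bp (3.64%, 2.48 to 5.32), and 27 of 358 in the first 200 bp beyond (7.54%, 5.23 to 10.8). From 200 to 1000 bp downstream 11.4% passed. Downstream minus inside, the share past IDR was 3.9 points (1.04 to 7.31) at the outer end and 9.27 points (6.4 to 12.6) from 200 to 1000 bp.

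**Figure D3:**
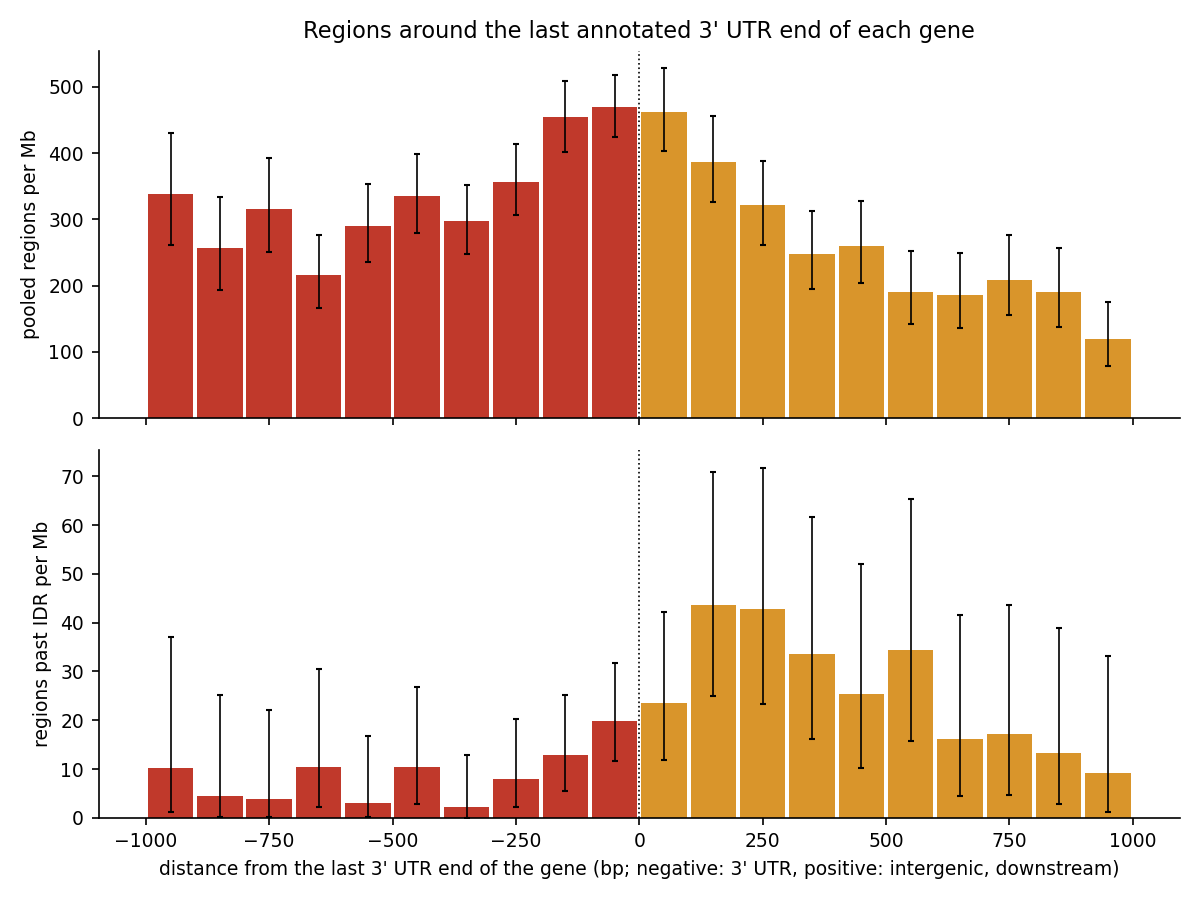
Pooled regions per Mb (top) and regions past IDR per Mb (bottom) in bins of 100 bp around the last annotated 3' UTR end of each gene, counted only over 3' UTR bases (negative, red) and intergenic bases (positive, orange) more than 500 bp from a TSS, with exact Poisson 95% intervals. The upper panel peaks at 470 per Mb in the last bin of the 3' UTR, and the lower panel peaks at 43.6 per Mb in the bin that starts 100 bp beyond the end.

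The start of the next gene lay a median of 2383 bp from a member (quartiles 1364 and 4266.5), counting starts of genes other than the host. For the members past IDR the median was 1805.5 bp, with a range of 507 to 31255 bp, and for the 3' UTR bases it was 3001 bp. A next start within 1000 bp was found for 10 of 50 members past IDR (20%, 11.2 to 33) and for 14.3% of the others, a difference whose interval includes 0 (5.67 points, -3.23 to 18.8). Within 2000 bp the shares were 54% and 40.5%, and that interval also includes 0 (-0.307 to 26.7). The next start belonged to a protein-coding gene for 41 of 50 and to a non-coding gene for 9. For 35 of 50 (70%) it lay past the summit in the host's direction of transcription, against 75.8% of the others. Such a start can lie inside the host gene, as that of Art4 does in Glut4EF.

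**Figure D4:**
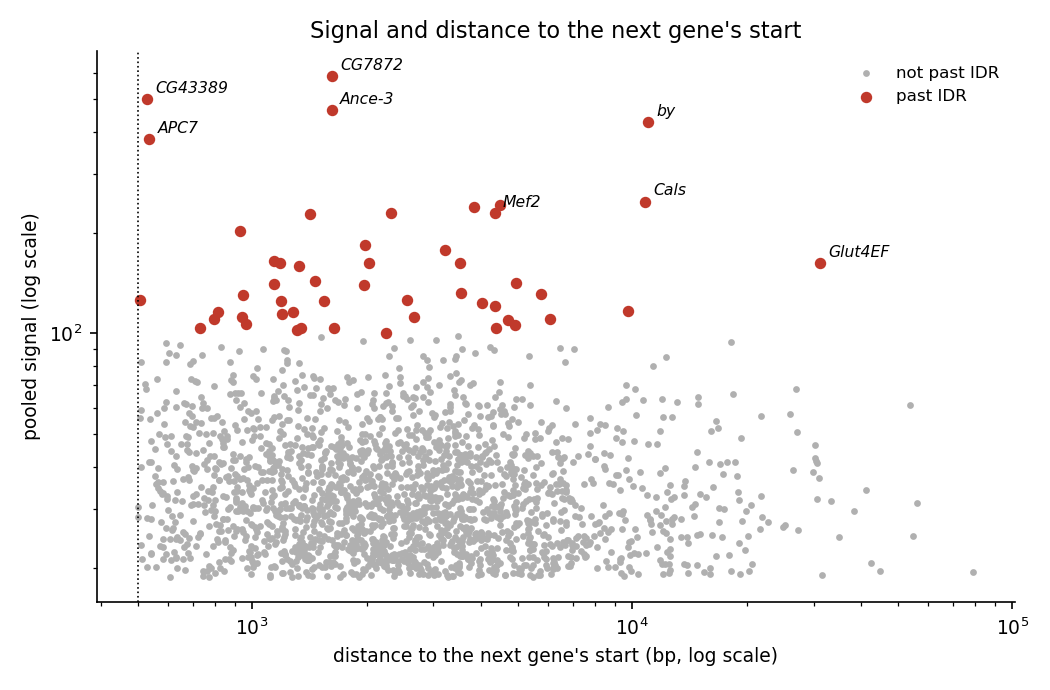
Pooled signal against the distance from the summit to the next gene's start, both on log scales, for the 2095 members, with those past IDR in red and the 500 bp limit dotted. The 5 strongest members lie between 528 bp (CG43389) and 11035 bp (by), and the farthest past IDR is Glut4EF at 31255 bp.

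The members past IDR fell into a few strong regions and many near the threshold. A signal of 300 or more was reached by 5, a signal from 200 to below 300 by 7, and 30 were below 150. The strongest lay in CG7872 (X, summit 15579791), with a pooled signal of 587. It ranked 95 in replicate 1 and 140 in replicate 2, so it was high in both. Its summit was 66 bp before the end of the 3' UTR and 1620 bp from the start of cerv. Second was CG43389 (3L, summit 3248812) with a signal of 501 and ranks of 122 and 321. Its summit lay 1 bp inside the 3' UTR, with the start of lncRNA:CR43626, a long non-coding RNA gene, at 528 bp and another IDR summit 201 bp away. Next came Ance-3 (2L, summit 13955919), a relative of angiotensin-converting enzyme, with a signal of 463 and ranks of 175 and 209. Its next start was that of NimA, 1620 bp downstream on the same strand.

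The region in by (3R, summit 9528606), which encodes the adhesion protein tensin of integrin attachments, had a signal of 428 and ranks of 206 and 360. It was far from other genes: the next start, of an annotated non-coding RNA without a symbol, was 11035 bp away. APC7 (X, summit 6599525), a subunit of the anaphase-promoting complex, had a signal of 380. It ranked 178 in replicate 1 and 1402 in replicate 2, with the start of pigs 537 bp downstream. All 5 had a rank of 1402 or better in each replicate.

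Of the 7 next in line, Cals (chromosome 4, summit 1113354), encoding the cadherin-like protein calsyntenin, had a signal of 247 and rank 751 in replicate 1, but no replicate 2 region within 200 bp. The others ranked among the strongest 4782 in both. They were stas (242, a membrane protein gene), CG33307 (238), Mef2 (229), scf (228, a calcium-binding protein), CG8206 (228) and CG13405 (202). Mef2 is the MADS-box factor required for muscle differentiation. Its summit (2R, 9915239) lay 1506 bp into a 3' UTR of 3250 bp, ranked 922 and 1521, and was 4346 bp from the start of Etf-QO on the opposite strand.

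The remaining 38 had signals below 200. Named hosts among them had varied roles. For the cytoskeleton there were chic (165, profilin) and Act5C (116, a cytoplasmic actin). Inx2 (132) encodes a gap junction protein, and NetB (116) the axon guidance ligand Netrin-B. For transcription there were Bre1 (177, the ubiquitin ligase of histone H2B), Glut4EF (162, a DNA-binding factor) and MED9 (125, a Mediator subunit). The 3' UTR of MED9 overlaps that of CG42518. For metabolism there were aay (162, phosphoserine phosphatase), Pbgs (126, heme synthesis), Lsd-2 (121, a lipid droplet protein), Kdsr (114, sphingolipid synthesis) and Indy (111, a citrate transporter). Others were Tctp (140), Calr (125, calreticulin), Hph (123, the prolyl hydroxylase of hypoxia), Trs20 (112), Crag (106) and elav (104). The last encodes the neuronal RNA-binding protein known for lengthening 3' UTRs of neuronal genes. CG16989 held 2 members past IDR 242 bp apart (142 and 109). The rest lay in genes known by number alone, from CG10939 with the highest signal (184) to CG9837 with the lowest (100): CG3842, CG13949, CG46304, CG5151, CG15514, CG8249, CG12025, CG7668, CG9003, CG5895, CG2852, CG10035, CG10357, CG5828, CG14440 and CG13917 fell between.

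Both replicates held regions at most of these 50. All had a replicate 1 region within 200 bp and 45 (90%, 78.6 to 95.7) had a replicate 2 region. Of all IDR peaks outside promoters, 99.2% had a replicate 1 region and 96.4% a replicate 2 region. The value of 96.4% lies just above the interval of the members. In the strongest 4782 regions, 26 of 50 were found in both replicates (52%, 38.5 to 65.2), 17 in replicate 1 alone, 5 in replicate 2 alone and 2 in neither. For other IDR peaks outside promoters the shares were 56.6%, 24.6%, 15.2% and 3.66%, and each lies inside the interval of the members' share. The 5 without a replicate 2 region were in Cals, Bre1, CG7668, CG9003 and CG10035. Tctp ranked 1431 in replicate 1 and 22308 in replicate 2, while Lsd-2 ranked 9581 and 1705. Over all members, 79.8% had a replicate 1 region and 46.2% a replicate 2 region within 200 bp. Minus the share of other pooled regions, the former was 0.868 points (-0.969 to 2.6) and the latter -22 points (-24.2 to -19.8).

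**Figure D5:**
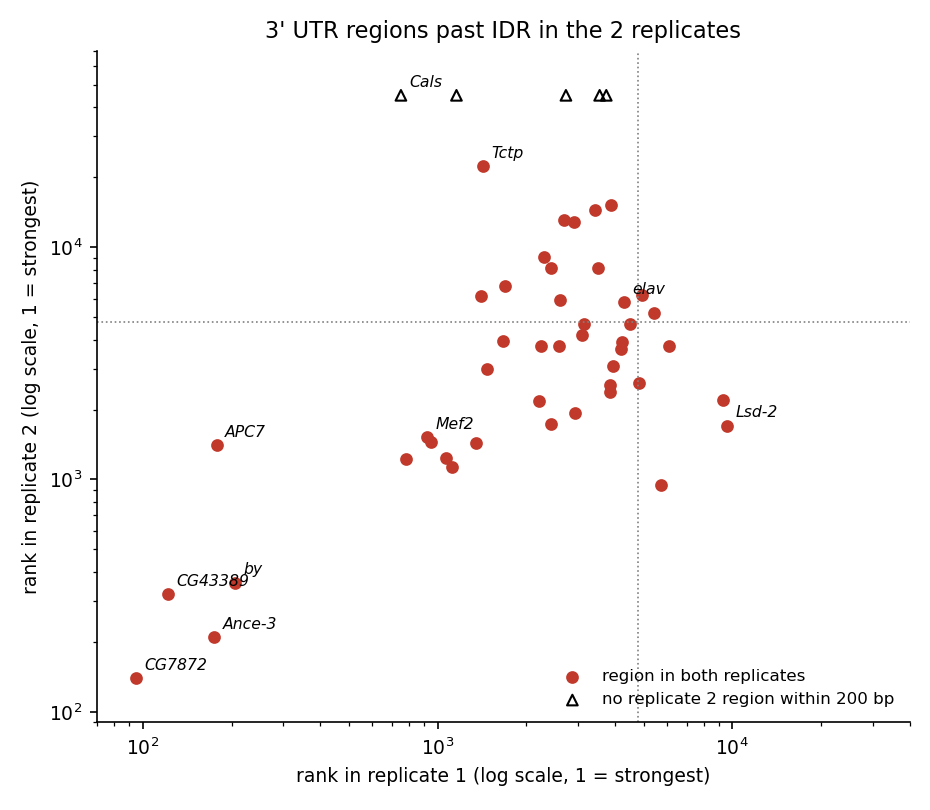
Rank in replicate 1 (horizontal) and in replicate 2 (vertical), both on log scales with 1 the strongest, of the 50 members past IDR; dotted lines mark rank 4782, and the 5 triangles at the top had no replicate 2 region within 200 bp. The 4 strongest members sit at the lower left, at rank 360 or better in both replicates.

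The strongest members that failed IDR lay just below the threshold. They were in Dyro (98.6), mats (97.8), Ppa (95.5), nocte (95.5) and Ac13E (94.7). Dyro ranked 2985 in replicate 1 and 21489 in replicate 2, whereas Ppa ranked 14878 and 2235.

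Homeodomain words were searched on both strands within 100 bp of the summit. TAATTA, a palindrome, was in 22.6% of members, 16% of other pooled regions and 15.8% of 3' UTR windows of the same length. The difference from other pooled regions was 6.66 points (4.86 to 8.55). In windows 600 bp to either side it was in 14% and 13.2%. TAACTA was in 18.7% of members and 10.5% of other regions, but 3' UTR windows as a whole held it in 17.4%. The windows 600 bp to either side of members held it in 12.4% and 12.1%. Neither word set apart the members past IDR, of which 11 of 50 held TAATTA (22%) and 10 held TAACTA (20%). The differences from members that failed were -0.641 points (-10.1 to 12.7) and 1.32 points (-7.61 to 14.5). TAATTA and TAACTA can overlap, as in CG3842, and both become more frequent in sequence rich in A and T.

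AATAAA was in 52.1% of members and 41.1% of 3' UTR windows. Among the members past IDR it was in 32 of 50 (64%, 50.1 to 75.9), against 51.8% of those that failed, a difference whose interval includes 0 (-1.86 to 24.2 points). The host's own strand held it in 21 of 50 (42%) and the opposite strand in 19 (38%), against 34.3% and 27.2% of members that failed. In windows 600 bp to either side of members it was in 34.1% and 31.4%. Of other pooled regions 48.1% held it. Of the 8 other words searched, 6 were less frequent in members than in other pooled regions, which include promoters. TATCGATA, which holds the core of the promoter element bound by DREF, was in 0.621% of members and 2.41% of the others, but in 0.593% of intronic regions and 0.49% of 3' UTR windows. GGTCACAC, a core promoter word of broadly used genes, was in 0.143% and 1.65%, and in 0.187% of 3' UTR windows. GAGAGA, the word of GAGA factor, was in 7.21% and 10.9%, and in 7.13% of 3' UTR windows. The E-box CAGCTG was in 4.11% and 8.57%, and in 5.74% of 3' UTR windows. CAGGTA was in 2.15% and 4.56% (3.36% of 3' UTR windows), and TCAAGTG, an NK-type homeodomain word, in 2.05% and 3.68% (2.69% of windows). Apart from TATCGATA, these words were also more frequent in intronic pooled regions than in members. The intronic shares were 10.4% for GAGAGA, 7.47% for CAGCTG, 4.16% for CAGGTA, 4% for TCAAGTG and 0.356% for GGTCACAC. The word AGATAA, of the kind that GATA factors bind, differed by an interval that included 0 (-1.89 to 1.24 points), and so did CACACA (-0.433 to 3.03 points).

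The members lay in the 3' UTRs of 1541 genes, 13.6% of the 11306 with bases eligible under the rule, and members past IDR in 50 genes, or 0.442%. Hosts had more sequence to offer, with a median of 880 eligible bases against 256 over all genes. A single member was found in 1105 hosts, and 24 had 5 or more. Genes with the most, picked after their values were seen, were br (22), a zinc finger regulator of metamorphosis, then elav and fs(1)h (9 each), mub and pum (8 each) and EcR (7), the ecdysone receptor. All 22 members in br failed IDR.

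Gene lists were read against that 13.6%, and their hosts of members past IDR against the 0.442%. Lists this short cannot tell the absence of such hosts from that low share. Of 17 genes for RNA-binding and post-transcriptional regulators with eligible bases, 12 hosted a member (70.6%, 46.9 to 86.7), and their median eligible length was 5407 bp. Among all genes with 2000 or more eligible bases, 37.7% were hosts. Examples were elav, the translational repressors pum (strongest member 85.4) and brat (68.1), and Fmr1 (69.2). Of 74 ribosomal protein genes, 20 hosted a member (27%, 18.2 to 38.1), although their median eligible length was 166 bp. Among all genes with 1 to 249 eligible bases, 3.06% were hosts. The strongest were in RpS23 (86.4), RpS3 (76.4) and RpL13 (74.9), and none of the 20 hosts had a member past IDR. Their members numbered 1003.4 per Mb of eligible 3' UTR, against 306 over all genes.

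In the lists closer to muscle and heart 1 member passed IDR, in Mef2. Over all members 2.39% passed, so with so few members a list without any that passed is not set apart. Of 20 muscle identity genes 7 hosted a member, among them the homeobox genes caup (33.2), ap (31.9) and mirr (26.8), and none passed IDR. Of 17 mesoderm and heart genes 4 did: Mef2 passed IDR, and zfh1 (40.6), pnr (35.5) and how (31.1) did not. Of 24 genes of the contractile apparatus and muscle attachment 3 did, namely the integrin subunits mys (33.5) and if (23.6) and the tropomyosin gene Tm1 (22.7). Signalling genes were hosts in 6 of 20 cases for FGF, EGF and Notch, with aos highest (41.3). For Wnt, Hedgehog and Dpp the count was 6 of 17, with the Hedgehog receptor gene ptc (80.9), dally (71.6) and fz2 (56.2) highest. Of 17 neural genes 5 did, with elav alone past IDR. The intervals for the muscle identity list (18.1 to 56.7), the FGF, EGF and Notch list (14.5 to 51.9) and the Wnt, Hedgehog and Dpp list (17.3 to 58.7) lay above 13.6%. Their median eligible lengths were 798, 907 and 1093 bp. The part of length in these shares was not tested. Among all genes with 500 to 999 eligible bases, 24.3% were hosts, and among those with 1000 to 1999, 32.9%. The share of the Wnt, Hedgehog and Dpp list was 35.3%, and its interval includes 32.9%. The shares of the muscle identity list (35%) and of the FGF, EGF and Notch list (30%) have intervals that include 24.3%.

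Members were spread over all arms. They numbered 362 per Mb of eligible 3' UTR on X (333 to 393), between 253 and 328 on 2L, 2R, 3L and 3R, and 501 on chromosome 4 (377 to 654), from 54 members. Over all pooled regions, per Mb of whole arm, X (256) and chromosome 4 (319) were also denser than the other arms (202 to 234). On chromosome 4 the replicates differed most: 72 regions of replicate 1 and 4 of replicate 2 lay in its 3' UTRs. On X the counts were 581 and 442. X and 3L each held 14 of the 50 members past IDR. These were 2.49% (1.49 to 4.14) of the members on X and 3.41% (2.04 to 5.65) of those on 3L, against 2.39% over all members. All IDR peaks, per Mb of whole arm, numbered 32.7 on X, 15.8 on chromosome 4 and 35.4 to 37.7 on the other arms.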

How the data were processed

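Per the labels, 2 biological replicates of 1 group were sequenced. The deposited dm6 lists in narrowPeak format hold regions with a signal score from the authors' peak caller, for each replicate, for both pooled, and for peaks past IDR. Which aligner and caller were run, and in which version, is not given in the sources used here. Signal served for ranks and descriptions inside a list alone, and the summit is the deposited offset. Summits were placed on Ensembl release 115 (BDGP6.54) and genome release 6 with Python 3.11.15 and pandas 2.3.3. A base belonged to the first of promoter, 3' UTR, 5' UTR, exon with coding sequence, intron, any other exon and intergenic sequence that held it. Summits matched between lists within 200 bp. Shares of 3' UTR bases used every 50th eligible base. Intervals are 95% Wilson, Newcombe, exact Poisson and exact conditional rate ratio intervals (scipy 1.17.1), and membership and intervals were tested on simulated data. Named genes were the hosts past IDR (the 12 strongest in most detail), the 5 strongest members that failed, up to 4 members per list and the 3 nearest to each side of the limit. A gene that this rule names is not reported here. Members, lists and words were chosen with earlier results of these data known. From the lists col, msh, Dl, yan and nos were not found under those symbols. The classes of base composition and the counts around gene ends were added after the data were examined. Sequences of 2R are not printed.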

Additional observations from a re-analysis of the deposited data

How the results depend on the processing

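Of 36 recomputed values, 32 stayed within their limits and 4 moved. With the stronger 15000 pooled regions alone, 627 members were left; the shorter list lowers the count, and the members' median signal (32) lies below that of all regions (41.2). The share past IDR was 3.44% when only the strongest member of each host was kept, an alternative chosen after seeing the data. Passing followed the pooled signal, so keeping the strongest members raises this share by construction. With 1 replicate left out, 2.12% to 3.29% of the other replicate's 3' UTR regions ranked among its strongest 4782 regions. The number of its 3' UTR regions ranged from 1427 to 2458. TAATTA was found in 12.8% of members when 50 bp to each side were searched, a shorter window by construction. Other limits around starts (200 and 1000 bp), other sets of starts and leaving out coding exons left the share past IDR between 2.22% and 2.71%. With the midpoint in place of the summit it was 2.34%. That alternative could change little: 2080 of the 2095 members were 410 bp wide, and in these the midpoint and the summit nearly coincide. A member in the top list of replicate 1 was found in that of replicate 2 in 51.9% of cases (27 of 52), and the reverse in 59.6%. No paired analysis was possible because there is 1 group and no test between groups. Depth is unknown, so how it limits the weak regions could not be assessed.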

Other observations

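Members were denser in 3' UTRs of middle length. Genes with 500 to 999 eligible bases had 409 members per Mb, those with 250 to 499 had 388, and those with 2000 or more had 247. Members past IDR numbered 17.7 per Mb in the class of 250 to 499 bases and 3.04 per Mb in the longest. A 3' UTR of 1000 bp or more held 40% of the members past IDR and 56.7% of the others, a difference of -16.7 points (-29.3 to -2.74).

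Another IDR summit lay within 1000 bp of 8 of the 50 members past IDR (16%) and of 6.65% of the others. The difference was 9.35 points (1.6 to 21.9). The 8 include the pair in CG16989, 242 bp apart, each member being the other's neighbour. The interval treats them as independent, which they are not. Without any member that had such a neighbour, 2.15% passed IDR.

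The 3' UTR regions in the top list of replicate 1 averaged 66.1% A and T (SD 4.94, n = 52 regions), and those of replicate 2 averaged 60.3% (SD 7.94, n = 47 regions).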
